A study of Mus musculus with 6 samples.

Results

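Ang4, Itln1, Retnlb, Lyz1, Wfdc2, Slpi, Pigr and Lypd8 encode secreted or shed defence proteins of mucosal surfaces, most of them made by the gut epithelium. They are 8 of the 16906 gene rows of a table of read counts from mouse colon. The genes were chosen by name, with the fold changes of these same libraries between TNBS and normal colon already known, so their fold changes and test calls are a description and support nothing. The study sequenced RNA of colon tissue from wild-type male mice of the C57 strain (C57BL/6J in the growth protocol), 6 to 8 weeks old and weighing 20 to 22 g. The TNBS group has 3 libraries from mice that received 5% (w/v) TNBS in the colon through the anus; TNBS, trinitrobenzene sulfonic acid, is a hapten used to cause colitis. The normal group has 3 libraries from mice under normal feeding, and the labels name no mock instillation or solvent, so TNBS and the procedure of giving it cannot be told apart. The series sets out to compare gene expression between TNBS-induced inflammatory bowel disease and normal colon. The labels do not say which mouse each library came from, so the tests measure the spread between these libraries.

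The colon separates a dense microbial community from the tissue with a mucus layer, antibody and secreted antibacterial proteins. Goblet cells make most of the mucus, surface enterocytes add proteins that keep bacteria away from the epithelium, and the epithelium carries immunoglobulin A made by plasma cells below it into the lumen. Several of the goblet cell products described here are known from worm infection and respond to the type 2 cytokines IL-4 and IL-13, while other antibacterial genes of the epithelium respond to IL-22.

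Libraries held 20537026, 15185569 and 18381576 counts in TNBS replicates 1, 2 and 3, against 22999588, 23380492 and 21624206 in the normal libraries. Levels below are CPM, counts scaled to a common library size by the trimmed mean of M values (TMM). Some libraries stand apart from their labels. Although every mouse is labelled male, the summed transcripts of 4 Y-linked genes reached 0.697%, 103% and 38.2% of the normal mean in the TNBS libraries, and from 92.1% up to 114% of it in single normal libraries. Hoxb6, a patterning gene of more forward body segments, had 8.95, 79.3 and 80.6 CPM in the TNBS libraries against 3.36 to 11.5 CPM in the normal libraries, while Hoxb13, a gene of the hindmost gut, had 21.4, 0.194 and 0.308 CPM against 7.37 to 106 CPM. TNBS replicates 2 and 3 therefore differ from TNBS replicate 1 in genes of position along the gut. Mitochondrially encoded genes took 0.755%, 3.92% and 1.95% of the TNBS libraries, against 0.563% to 0.951% of the normal ones. Colon epithelium was present in both groups, and all 11 epithelium markers were measured, among them Epcam, Cdh1 and Krt8. Their summed level was 12960 ± 1931 CPM in TNBS colon and 12721 ± 940 CPM in normal colon (SD, n = 3 each). An exact two-sided permutation test gave p = 1, where 0.1 is the smallest that 3 against 3 can give. The sum hides unlike markers, as 5 of the 11 had a log2 fold change above 0. Lgals4 averaged 4252 CPM in TNBS colon and 2413 CPM in normal colon. Epcam averaged 1182 and 1682 CPM, Cdh1 1030 and 1422 CPM, and Krt8 2584 and 3183 CPM. A like sum therefore does not show a like epithelial content.

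Ang4 and Itln1 had the lowest TNBS levels relative to normal of the 8 genes. Ang4 encodes angiogenin 4, a ribonuclease of the secretory epithelium that kills bacteria in mice. It lies on the minus strand at chr14:51763878-51773590 (mm10, GENCODE vM21), where 4.7% of its 50-base exonic stretches also occur in Ang5 or Ang2. Itln1 encodes intelectin 1, a goblet cell lectin that binds sugars found on microbes, and lies on the minus strand at chr1:171518122-171535294. The 250 bases before the transcription start of each gene are shown because these genes stood lowest in TNBS colon relative to normal. They come from RefSeq on GRCm38.p6, the build that mm10 corresponds to, read 5′ to 3′ on the strand of the gene.
Ang4, chr14:51773591-51773840, minus strand: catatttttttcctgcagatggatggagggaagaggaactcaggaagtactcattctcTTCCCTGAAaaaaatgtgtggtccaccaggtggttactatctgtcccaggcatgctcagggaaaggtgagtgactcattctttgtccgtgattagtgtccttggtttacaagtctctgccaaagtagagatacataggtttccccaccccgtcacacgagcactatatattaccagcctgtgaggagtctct
Itln1, chr1:171535295-171535544, minus strand: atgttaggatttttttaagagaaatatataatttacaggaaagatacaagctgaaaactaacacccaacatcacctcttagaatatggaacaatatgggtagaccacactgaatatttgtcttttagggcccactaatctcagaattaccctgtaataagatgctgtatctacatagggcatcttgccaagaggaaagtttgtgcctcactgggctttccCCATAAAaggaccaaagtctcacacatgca
Capitals in the Ang4 window mark a match to TTCNNNGAA, the letters of STAT factors such as STAT3, at -192 to -184 from the start; these letters read the same on both strands. Capitals in the Itln1 window mark a match, on the reverse strand, to TTTATNG, letters bound by the intestinal factor CDX2, at -30 to -24. RefSeq windows were matched for 7 of the 8 genes, all but Retnlb, and searched on both strands for these motifs, for TATAAA (the TATA box) and for TTC and GAA set 4 bases apart, the STAT6-type spacing. No other match was found in the windows of the 7 genes. Of 27025 mouse promoter windows of this length, 13% hold TATAAA, 10.2% TTTATNG, 7.18% TTCNNNGAA and 5.86% the STAT6-type letters. A match describes letters only, and binding was not measured.

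Ang4 had 504, 202 and 389 counts in TNBS replicates 1, 2 and 3, against 30063, 59215 and 27325 counts in the normal libraries. Every TNBS library stood far below every normal library, with 22.9 CPM in the highest TNBS library against 1311 CPM in the lowest normal one. The mean was 18.6 ± 5.05 CPM in TNBS colon and 1792 ± 774 CPM in normal colon (SD, n = 3 each). The log2 fold change, TNBS over normal, was -6.58 (SE 0.42), a fold of 0.0104 with a 95% interval of 0.00539 to 0.0202. In bulk tissue, for this gene and the others, fewer cells of a type and less RNA per cell cannot be told apart.

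Itln1 had 10, 3 and 19 counts in the TNBS libraries and 705, 1489 and 1041 counts in the normal libraries. The groups did not overlap for Itln1 either. Its mean was 0.541 ± 0.398 CPM in TNBS colon and 50.3 ± 18.5 CPM in normal colon, with a log2 fold change of -6.49 (SE 0.53) and a fold of 0.0111 (95% interval 0.00483 to 0.0257). With so few TNBS counts the relative spread was wide: the highest TNBS library had 5.03 times the lowest, against 2.19 times among normal libraries. Leaving out TNBS replicate 3, the highest, moved the log2 fold change of Itln1 to -7.18, and keeping only TNBS replicate 2 in the TNBS group gave -7.98. For Ang4 every fit that left out 1 library stayed between -6.76 and -6.15, and TNBS replicate 2 alone as the TNBS group gave -7.11. Both genes were called lower in the main fit (edgeR quasi-likelihood test, Benjamini-Hochberg adjusted p under 0.05 over 14126 genes). They were also called lower at an adjusted p under 0.05 in each of 17 alternative settings, which include DESeq2, limma-voom and other numbers of genes tested.

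Retnlb encodes resistin-like molecule beta, a goblet cell protein that acts on bacteria and worms in the lumen. It lies on the plus strand at chr16:48816856-48818892, beside Retnla and Retnlg. It had 10641, 2992 and 2628 counts in the TNBS libraries and 13016, 32721 and 17437 counts in the normal libraries, which is 484, 193 and 135 CPM against 568, 1483 and 880 CPM. The groups did not overlap, but TNBS replicate 1 came close to normal replicate 1. Means were 271 ± 187 CPM in TNBS colon and 977 ± 465 CPM in normal colon, a log2 fold change of -1.85 (SE 0.51) and a fold of 0.277 (95% interval 0.125 to 0.613), which did not pass the edgeR threshold. Without TNBS replicate 1 the log2 fold change was -2.58 and passed it; with TNBS replicate 1 alone as the TNBS group it was -1.01 and did not. In TNBS replicate 1 the shift from the normal mean on the log2 scale was -0.90 for Retnlb and -6.20 for Ang4, so the 2 genes did not keep step in that library.

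Lyz1 encodes lysozyme P, the cell wall-cutting enzyme of Paneth cells in the small intestine, and lies on the minus strand at chr10:117287797-117292868. It had 25, 0 and 50 counts in the TNBS libraries and 141, 31 and 31 counts in the normal libraries. The groups overlapped. Lyz1 averaged 1.23 ± 1.29 CPM in TNBS colon and 3.04 ± 2.7 CPM in normal colon, and the 0 of TNBS replicate 2 allows up to 0.194 CPM, the level of 3 counts. The log2 fold change was -1.29 (SE 1.15), with an interval for the fold of 0.0675 to 2.49 that spans 1. Its neighbour Lyz2, the lysozyme of macrophages and neutrophils, shares 16.1% of the 50-base stretches of Lyz1, so some counts of Lyz1 may belong to Lyz2. Lyz2 had 7423, 1237 and 4670 counts in the TNBS libraries and 6607, 3587 and 2437 in the normal libraries, and Lyz1 took 0.336%, 0% and 1.06% of the counts of the pair in TNBS colon and 2.09%, 0.857% and 1.26% in normal colon. Nearly all lysozyme counts of this colon tissue were thus assigned to Lyz2.

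Wfdc2 and Slpi encode small secreted proteins with WAP domains; Slpi inhibits neutrophil elastase and both are known to act on bacteria at mucosal surfaces. They lie on chromosome 2, Wfdc2 on the plus strand at chr2:164562413-164568510 and Slpi on the minus strand at chr2:164354070-164389095. Wfdc2 had 459, 569 and 339 counts in the TNBS libraries and 945, 592 and 326 counts in the normal libraries. These ranges overlapped almost entirely. It averaged 25.0 ± 10.3 CPM in TNBS colon and 28.2 ± 12.4 CPM in normal colon, with a log2 fold change of -0.17 (SE 0.38) and an interval for the fold of 0.486 to 1.62; the sign turned in settings that left out libraries, to 0.21 without normal replicate 1 and 0.38 with TNBS replicate 2 alone as the TNBS group.

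Slpi had 162, 4 and 17 counts in the TNBS libraries and 99, 51 and 33 counts in the normal libraries, which sum to 183 in each group. TNBS replicate 1 was the highest and TNBS replicate 2 the lowest of all 6 libraries, and within the TNBS group the highest level was 28.5 times the lowest, against 2.59 times among normal libraries. Means of 2.83 ± 3.94 CPM in TNBS colon and 2.77 ± 1.38 CPM in normal colon (SD, n = 3 each) therefore hide libraries that went apart. The log2 fold change was 0.04 (SE 1.01), and the sign turned to -2.26 without TNBS replicate 1. Fibroblast markers were likewise highest in TNBS replicate 1 and lowest in TNBS replicate 2. Their summed level was 3748, 839 and 1676 CPM in TNBS replicates 1, 2 and 3 and 2131 to 2351 CPM in the normal libraries. Macrophage markers had that order too, at 704, 280 and 536 CPM against 356 to 537 CPM. Smooth muscle and epithelium markers did not. The part of fibroblast or macrophage content in the spread of Slpi was not tested.

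Pigr encodes the polymeric immunoglobulin receptor, which carries dimeric immunoglobulin A across epithelial cells and is shed with it as secretory component. It lies on the plus strand at chr1:130826684-130852249. Pigr had 134196, 99241 and 109049 counts in the TNBS libraries and 171747, 177108 and 115251 counts in the normal libraries. Levels of 6098, 6416 and 5596 CPM in TNBS colon lay around the lowest of the levels in normal colon, which were 7492, 8027 and 5817 CPM, and the groups overlapped. Means were 6036 ± 413 CPM in TNBS colon and 7112 ± 1153 CPM in normal colon, a log2 fold change of -0.24 (SE 0.23) and a fold of 0.849 with an interval of 0.588 to 1.22. Of the 8 genes Pigr was the steadiest within the TNBS group, with a coefficient of variation of 6.85%.

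Lypd8 encodes an anchored and shed protein of surface colonocytes that binds flagella and keeps motile bacteria off the epithelium. It lies on the plus strand at chr11:58379043-58390728. Its level was 2372, 2215 and 2697 CPM in TNBS replicates 1, 2 and 3 and 4623, 4986 and 4953 CPM in the normal libraries, from 52194, 34262 and 52553 counts against 105967, 110011 and 98139. All 3 TNBS libraries were near 1 level and all 3 normal libraries near another. Means were 2428 ± 246 CPM in TNBS colon and 4854 ± 201 CPM in normal colon, a log2 fold change of -1.0 (SE 0.21) and a fold of 0.5 (95% interval 0.359 to 0.697). It narrowly missed the edgeR threshold and passed it in DESeq2, in limma-voom, with RLE scaling, without TNBS replicate 1 and with TNBS replicate 2 alone as the TNBS group.

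**Figure D1:**
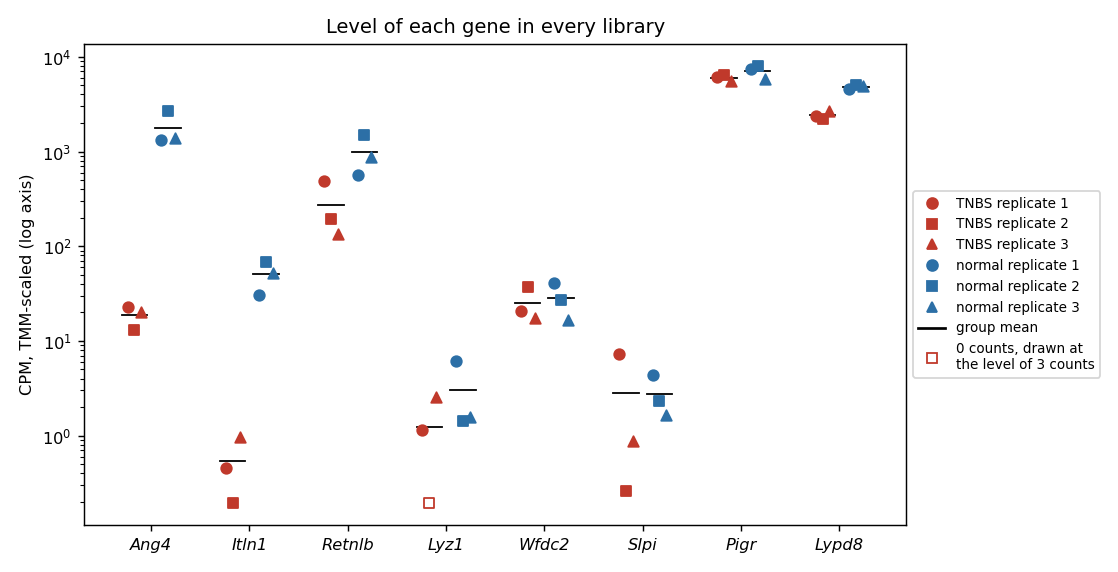
Level of each of the 8 genes in every library, in TMM-scaled CPM on a log axis, with TNBS libraries in red left of normal libraries in blue, a marker shape for each replicate and a black bar at each group mean; an open symbol is a library with 0 counts, drawn at the level of 3 counts. Ang4 and Itln1 show wide gaps between the groups, Retnlb and Lypd8 smaller ones, and the other 4 genes overlap.

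Of the 8 genes, 2 were called lower and 0 higher by edgeR, where 1.14% of the 14126 genes tested were called lower and 0.906% higher. Every TNBS library stood under every normal library for 4 of the 8 (Ang4, Itln1, Retnlb and Lypd8), against 14.8% of all genes tested, and for 0 of the 8 did every TNBS library stand over every normal one, against 15.3%. At an unadjusted p under 0.05, 4 of the 8 were lower, against 10.2% of all genes tested. DESeq2 called 3 lower, against 5.11% of the 13297 genes to which it gave an adjusted p, and limma-voom 3, against 1.03%. Without TNBS replicate 1, edgeR called 4 lower, against 3.97% of the 14499 genes then tested. Since the genes were chosen with this contrast known, nothing is read from these counts. The median log2 fold change was -1.14 over the 8 genes and 0.0073 over all genes tested. All 8 passed the filter on low counts, although Itln1, Lyz1 and Slpi each had a TNBS library under its minimum count of 10. Every normal library was above that count for these genes, so they passed through the normal group. With library totals as the only scaling, 196 genes were called higher and 102 lower, against 128 and 161 in the fit described here, and the median of all genes moved to 0.15; no sign of the 8 genes changed with it.

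**Figure D2:**
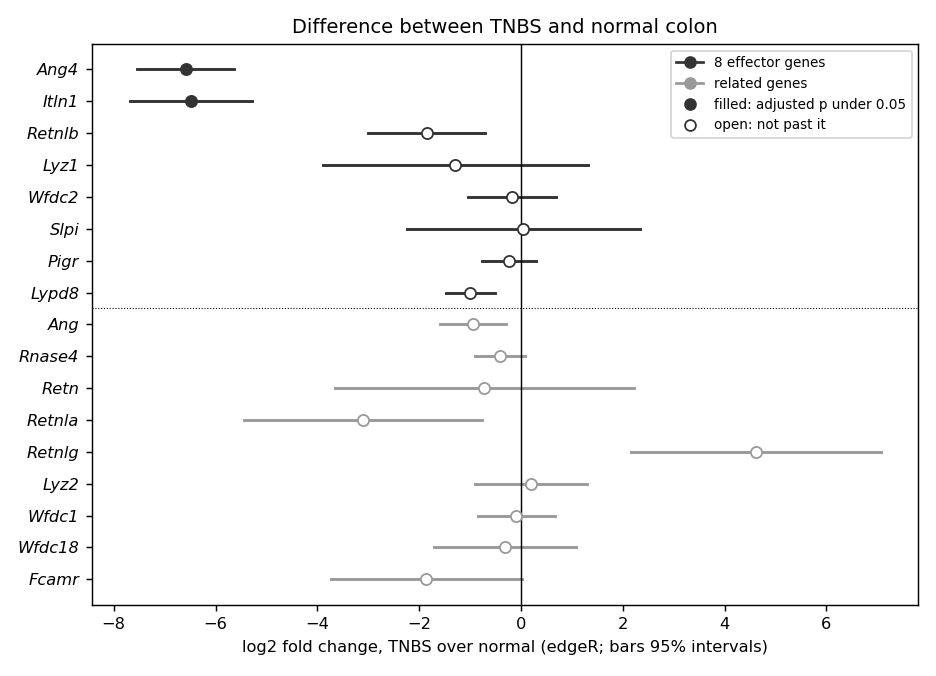
The log2 fold change of TNBS over normal from edgeR, with 95% intervals, for the 8 effector genes in black and 9 related genes in grey; filled points passed an adjusted p under 0.05. Ang4 and Itln1 stand at -6.58 and -6.49, the intervals of Retnlb and Lypd8 lie below 0, and those of Lyz1, Wfdc2, Slpi and Pigr span 0.

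Together the 8 genes took 0.965%, 0.904% and 0.898% of the counts of the TNBS libraries and 1.4%, 1.63% and 1.2% of the normal libraries. Their make-up differed too: Pigr and Lypd8 made up 94% to 97.9% of the summed counts in TNBS colon and 75.3% to 86.1% in normal colon, while Ang4 made up 0.147% to 0.254% in TNBS colon and 9.32% to 15.5% in normal colon. Between Pigr and Lypd8 the balance moved as well, with 2.57, 2.9 and 2.08 Pigr counts for each Lypd8 count in the TNBS libraries and 1.62, 1.61 and 1.17 in the normal libraries.

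To compare genes with each other, levels were divided by exon length. In TNBS colon the order by mean was Lypd8 at 1891 ± 191 CPM per kb, Pigr at 1500 ± 103, Retnlb at 389 ± 268, Ang4 at 26.3 ± 7.13, Wfdc2 at 21.9 ± 9.07, Slpi at 2.4 ± 3.34, Lyz1 at 0.977 ± 1.02 and Itln1 at 0.474 ± 0.349 (SD, n = 3). In normal colon it was Lypd8 at 3780 ± 157 CPM per kb, Ang4 at 2527 ± 1091, Pigr at 1767 ± 286, Retnlb at 1404 ± 668, Itln1 at 44.1 ± 16.2, Wfdc2 at 24.7 ± 10.9, Lyz1 at 2.41 ± 2.13 and Slpi at 2.34 ± 1.17. In TNBS colon the ranges of Ang4 and Wfdc2 overlapped, as did those of Slpi, Lyz1 and Itln1, so these neighbours cannot be ordered. In normal colon the ranges of Lypd8 and Ang4 overlapped too, but Lypd8 stood above Ang4 in every normal library. Ang4 likewise stood above Retnlb in every normal library, while the place of Pigr against each of these 2 changed between libraries. The order of Itln1 and Wfdc2, and that of Lyz1 and Slpi, also changed between normal libraries, so these cannot be ordered. Ang4 was thus among the genes of the highest level per length in normal colon and stood beside Wfdc2 in TNBS colon, and Itln1 stood beside Wfdc2 in normal colon and among the lowest in TNBS colon.

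**Figure D3:**
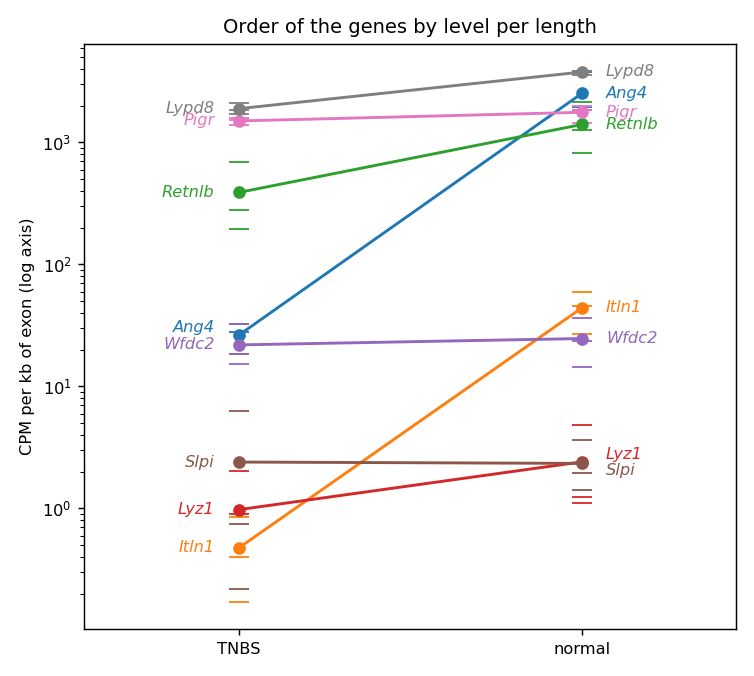
Mean level of each gene in CPM per kb of exon on a log axis, in TNBS colon at the left and normal colon at the right, with a line joining the group means and short bars for single libraries (the 0 of Lyz1 in TNBS replicate 2 is not drawn). The lines of Ang4 and Itln1 cross those of other genes, while Lypd8 keeps the highest mean in both groups at 1891 and 3780 CPM per kb.

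Across the 6 libraries the genes did not share 1 pattern. Likeness was measured as the root mean square difference of log2 CPM centred on the normal mean, where 0 is the same pattern. Ang4 and Itln1 differed from each other by 0.47, and each differed from Retnlb by 3.28. Pigr and Wfdc2 differed by 0.40, and Wfdc2, the wider of them, stayed between -0.67 and 0.65 of the normal mean in all 6 libraries. Among 12469 other genes, the nearest to both Ang4 and Itln1 was Clca1, a goblet cell protein of mucus, at 0.43 and 0.49, followed by Pla2g4c at 0.56 and 0.63. Nearest to Retnlb were Cmtm8 (0.40) and Anxa8 (0.41), and nearest to Lypd8 were Samd8 (0.07) and Ppp1r9a (0.11). Nearest to Slpi were the collagen genes Col1a1 (0.36) and Col3a1 (0.49), to Lyz1 Srpk3 (0.44) and Scrn1 (0.57), to Wfdc2 Hist1h1c (0.16) and Fdxr (0.18), and to Pigr Mad1l1 and Atp6v0a1 (0.07 each). These values describe 6 libraries that share depth and scaling, and they carry no test.

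Close relatives of the 8 genes were looked at beside them. Of 18 listed relatives 11 were in the table and 9 were tested, and 0 were called in either direction by edgeR. Of all genes tested, 1.14% were called lower and 0.906% higher, so this count cannot show whether whole families moved. At an unadjusted p under 0.05, 2 were lower and 1 higher, DESeq2 called 1 lower and 1 higher, and limma-voom called 0. Rnase1 and Wfdc3, each at 10 or fewer counts in any library, were not tested. Ang, the gene of angiogenin itself, had 243, 119 and 274 counts in the TNBS libraries and 422, 432 and 505 in the normal libraries, a log2 fold change of -0.95 (SE 0.29, edgeR adjusted p = 0.122). Ang4 took 67.5%, 62.9% and 58.7% of the counts of Ang4 and Ang together in TNBS colon and 98.6%, 99.3% and 98.2% in normal colon. Ang overlaps Rnase4, which had a log2 fold change of -0.41 (edgeR adjusted p = 0.306), on the same strand, so the counts of these relatives are uncertain.

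Among resistin genes the members of the chr16 cluster went different ways. Retnla, made by macrophages and other cells under type 2 cytokines, had 11, 0 and 67 counts in TNBS colon and 244, 313 and 188 in normal colon, with every TNBS library below every normal one (log2 fold change -3.10, SE 1.03, edgeR adjusted p = 0.145). Retnlg, a neutrophil gene, had 231, 155 and 136 counts in TNBS colon and 0, 23 and 1 in normal colon, with every TNBS library above (log2 fold change 4.62, SE 1.08, edgeR adjusted p = 0.0688). Neither passed the threshold in this fit. Retnla passed it with TNBS replicate 1 alone (adjusted p = 0.04) or TNBS replicate 2 alone (adjusted p = 0.00522) as the TNBS group, and Retnlg passed it in DESeq2, without the filter, with replicate number as a block and without normal replicate 2. Retn, the fat tissue hormone resistin, overlapped between the groups at -0.72 (SE 1.30, edgeR adjusted p = 0.778). Lyz2 had a log2 fold change of 0.20 (SE 0.48, edgeR adjusted p = 0.841). The WAP genes Wfdc1 and Wfdc18 stood at -0.09 and -0.31 (edgeR adjusted p = 0.892 and 0.802), and Fcamr, an Fc receptor for IgA and IgM that neighbours Pigr on chromosome 1, at -1.86 (edgeR adjusted p = 0.244). In the table's own annotation all 8 effectors carry the term extracellular region, as do 7.15% of all rows, and 3 of them, Ang4, Lyz1 and Slpi, carry defense response to bacterium, as do 0.308%.

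Markers of the cells that make these proteins moved unequally beside them. Of 9 goblet cell markers 2 fell and 0 rose (edgeR): Clca1 averaged 357 ± 158 CPM in TNBS colon and 23735 ± 10114 CPM in normal colon (log2 fold change -6.06, SE 0.53, adjusted p = 0.00248), and Fcgbp, a mucus-binding protein, 489 ± 330 CPM and 10885 ± 5636 CPM (-4.48, SE 0.69, adjusted p = 0.0207). Without TNBS replicate 1, 6 of the list were called lower, and without normal replicate 2 or normal replicate 3 only Clca1 was. The mucin Muc2, of which 3 rows carry the symbol and the one with an identifier in vM21 was used, averaged 5802 CPM in TNBS colon and 11179 CPM in normal colon without passing the test (edgeR log2 fold change -0.95, adjusted p = 0.255), and the secretory lineage factors Atoh1 and Spdef stood at -0.19 and 0.10 (edgeR adjusted p = 0.767 and 0.887); these 3 were chosen after their values were seen. Summed over the list, goblet cell markers reached 14508, 4240 and 7238 CPM in TNBS replicates 1, 2 and 3, and 38011 to 69991 CPM in the normal libraries, and none of the 9 was at 0 in any library. The median shift of the list from the normal mean was -0.24, -1.87 and -1.47 in TNBS replicates 1, 2 and 3, against -6.20, -7.01 and -6.40 for Ang4 and -0.90, -2.23 and -2.75 for Retnlb. The part of goblet cell content in these shifts was not tested.

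Of 9 absorptive colonocyte markers, of the cells that make Lypd8, 4 fell and 0 rose by edgeR (Ceacam20, log2 fold change -1.57; Slc9a3, -2.52; Aqp8, -3.92; and Car4), with adjusted p from 0.0123 to 0.0409. Without normal replicate 1 or normal replicate 3 only Ceacam20 and Slc9a3 were called lower, and without normal replicate 2 only Slc9a3. The median log2 fold change of the 9 was -1.57. At an unadjusted p under 0.05, 7 were lower by edgeR, while DESeq2 called 6 lower and limma-voom 5. Only 1 of the 9, Car1, had a log2 fold change above 0, with 3113 CPM in TNBS colon and 1565 CPM in normal colon. Summed over the list, Car1 included, the levels overlapped, with 2424 to 9686 CPM in TNBS colon and 5606 to 8727 CPM in normal colon. The part of colonocyte content in the level of Lypd8 was not tested. Of 11 epithelium markers 0 were called by edgeR in either direction (1 lower in DESeq2 and 0 in limma-voom; 3 lower and 1 higher at an unadjusted p under 0.05), with a median of -0.10, and Cdhr5 stood furthest from 0 at -0.87 (edgeR adjusted p = 0.101). Set against the summed epithelium markers in place of the library, Ang4 stood at 0.895 to 2.12 per 1000 in TNBS colon and 107 to 195 per 1000 in normal colon. Lypd8 stood at 152 to 219 per 1000 and 361 to 411 per 1000. The marker sums were alike in the groups, so this division returns nearly the same contrast and tells nothing about epithelial content. Of 12 listed Paneth cell markers 2 were tested and 1 fell by edgeR: Mptx2, with 1 count over the TNBS libraries and 479 over the normal libraries (adjusted p = 0.0328), a call that only the fits without TNBS replicate 1 or without normal replicate 3 kept when 1 library was left out. The other tested gene of the list, Mmp7, a protease that activates defensins, averaged 8.53 CPM in TNBS colon and 1.18 CPM in normal colon (log2 fold change 2.87, edgeR adjusted p = 0.124; chosen after its value was seen), and DESeq2 and an unadjusted p under 0.05 counted it as higher. The defensin genes of that list could not be matched to a single row of the counts and were not analysed here. Of 5 deep crypt secretory cell markers 0 were called by edgeR, limma-voom or DESeq2 (1 lower at an unadjusted p under 0.05), with Cd24a at -1.15 (edgeR adjusted p = 0.2).

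**Figure D4:**
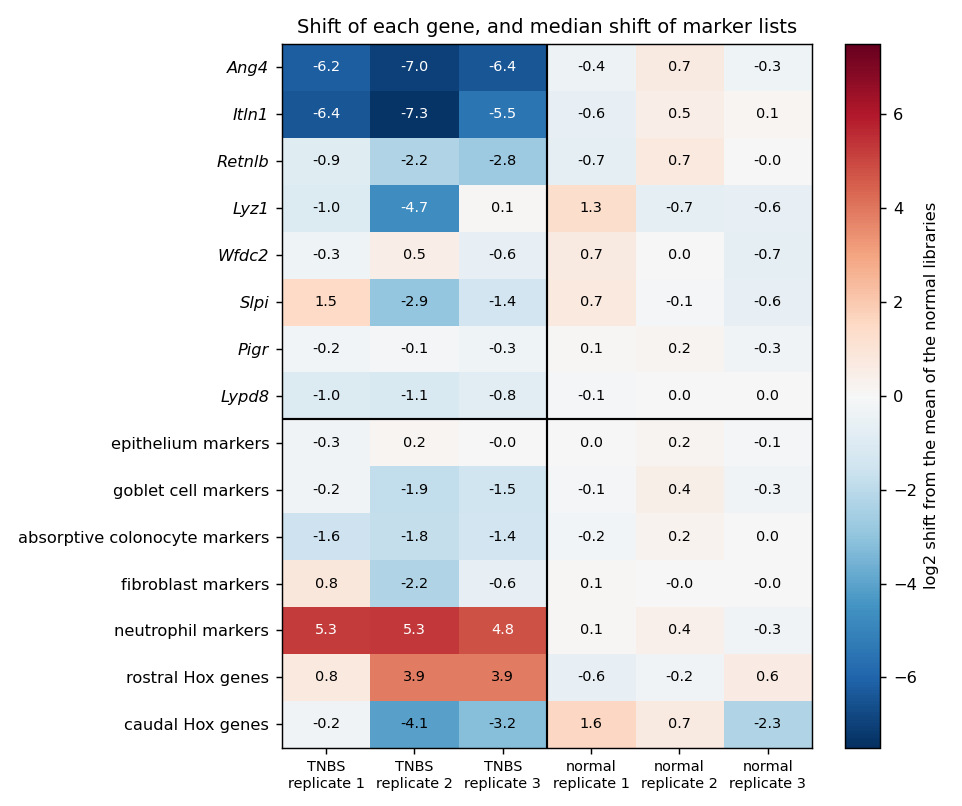
Shift of log2 CPM from the mean of the 3 normal libraries, in each of the 8 genes (upper rows) and as the median of marker lists (lower rows), with TNBS libraries at the left and normal libraries at the right; red is above and blue below the normal mean. Ang4 and Itln1 are at -5.48 or lower in every TNBS library, while the epithelium list stays between -0.26 and 0.19 in all 6 libraries.

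Other antimicrobial genes went both ways. Of 20 tested, 6 rose and 2 fell by edgeR, with a median log2 fold change of 1.36. Lcn2, which withholds iron from bacteria, averaged 97.1 ± 84 CPM in TNBS colon and 2.28 ± 0.147 CPM in normal colon (log2 fold change 5.41, SE 0.67, edgeR adjusted p = 0.0123). Saa3, an acute phase protein, averaged 73.1 ± 34.7 CPM in TNBS colon and 3.1 ± 2.97 CPM in normal colon (4.57, SE 0.67, edgeR adjusted p = 0.017). The lectins Reg3a, Reg3b and Reg3g and the lipopolysaccharide-binding protein gene Lbp were the others that rose. Mptx1, a mucosal pentraxin, averaged 107 ± 6.19 CPM in TNBS colon and 14788 ± 9992 CPM in normal colon (-7.11, SE 0.71, edgeR adjusted p = 0.00651), and Mptx2 was the other that fell. These counts rest on each library, since leaving out any 1 in turn gave 0 higher (normal replicate 2) to 7 higher (TNBS replicate 1) and 1 to 5 lower, with Mptx1 called each time. Antibacterial genes of this colon thus included some that stood low with Ang4 and Itln1 and some that stood high in the same libraries.

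Genes around the signals known to drive these genes were looked at in the same fit. The cytokine genes Il4, Il13, Il17a and Il22 themselves were not tested. Il4 was not matched to a row, and the others were below the filter, at group means of 0.416 CPM or less. The counts that follow cover other genes of each axis. Of 10 tested genes of the type 2 cytokine axis, which acts on Retnlb, Itln1 and Ang4, 2 rose and 0 fell by edgeR, with a median of 0.01: Il33 averaged 27.2 ± 5.79 CPM in TNBS colon and 10.4 ± 0.925 CPM in normal colon (log2 fold change 1.39, SE 0.25, edgeR adjusted p = 0.0333), and the receptor gene Il4ra 116 ± 28.4 CPM and 44.6 ± 11.1 CPM (1.38, SE 0.25, edgeR adjusted p = 0.0358). Of 12 tested genes of the IL-17 and IL-22 axis, which acts on Pigr, 2 rose and 1 fell by edgeR, with a median of 0.36. Socs3, a feedback inhibitor, had a log2 fold change of 2.80 (SE 0.29, edgeR adjusted p = 0.00676) and Stat3, the factor that switches Socs3 on, of 0.90 (SE 0.17, edgeR adjusted p = 0.0384). Il22ra1, the epithelial receptor chain for IL-22, fell to 14.1 ± 2.69 CPM in TNBS colon, against 31.4 ± 3.22 CPM in normal colon (-1.15, SE 0.23, edgeR adjusted p = 0.0413). Il33, Il4ra, Stat3 and Il22ra1 kept their calls without TNBS replicate 1 and lost them when any other library was left out, while Socs3 kept its call each time. Of 12 bacterial sensor genes 1 rose and 0 fell by edgeR, Cd14 at 1.18 (SE 0.24, edgeR adjusted p = 0.0427), with 0 to 1 higher when 1 library was left out. Of 16 transcription factor genes of the secretory and intestinal epithelium, 0 were called by edgeR (4 lower and 0 higher at an unadjusted p under 0.05; DESeq2 and limma-voom each called 1 lower), and Gfi1 stood furthest from 0 at -1.31 (SE 0.51, edgeR adjusted p = 0.193). Without TNBS replicate 1, 4 of them were called lower.

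Genes that supply or oppose what these proteins handle were looked at last. Immunoglobulin A reaches Pigr from plasma cells, and of 15 tested genes of that supply 0 were called by edgeR, with a median of -1.28. DESeq2 called 3 lower and limma-voom 0, and 4 were lower and 1 higher at an unadjusted p under 0.05 by edgeR. The immunoglobulin genes Igha and Igkc were not matched to a row, so these counts do not cover them. Jchain, the joining chain that Pigr binds, averaged 544 CPM in TNBS colon and 2097 CPM in normal colon (edgeR log2 fold change -1.95, adjusted p = 0.0595; chosen after its value was seen). Slpi inhibits serine proteases, and of 8 tested genes of that list 0 were called by edgeR or limma-voom. DESeq2 called 1 lower, and 1 was lower and 1 higher at an unadjusted p under 0.05 by edgeR. Mcpt1, a mucosal mast cell protease, had 194, 0 and 81 counts in TNBS colon and 21, 7 and 1 in normal colon. The neutrophil elastase gene Elane and Ctsg were not matched to a row and Prtn3 was below the filter, so these counts do not cover them. Of 11 other protease inhibitors 1 rose and 0 fell by edgeR: Serpina3n, at 234 ± 85.9 CPM in TNBS colon and 33.6 ± 5.95 CPM in normal colon (log2 fold change 2.80, SE 0.30, adjusted p = 0.00698). Leaving out normal replicate 2 or normal replicate 3 ended that call.

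Among markers of other cell types, most edgeR calls fell on neutrophil genes. Of 7 tested neutrophil markers 4 rose by edgeR, with a median of 4.70 (S100a9 at 6.81, S100a8 at 7.08, Mmp8 with 253 counts over the TNBS libraries and 1 over the normal ones, and Cxcr2). DESeq2 called 6 higher and limma-voom 1, with S100a9 at an adjusted p of 0.0579 and S100a8 at 0.123 in limma-voom. Without normal replicate 3 only S100a9 was called by edgeR. The list of 10 summed to 79.5, 279 and 113 CPM in TNBS colon and 3.99 to 17.1 CPM in normal colon. Of 10 macrophage markers 1, Cd14, rose, of 6 smooth muscle markers 0 were called by edgeR (Cnn1 at -1.14, adjusted p = 0.125) and of 6 fibroblast markers 0 were called (Dcn at 0.57, adjusted p = 0.183). At an unadjusted p under 0.05, 3 smooth muscle markers were lower and 1 fibroblast marker higher; DESeq2 called 3 and 0, and limma-voom 0 in both. Squamous epithelium of the anal edge was near absent: the list summed to 0.388 to 2.41 CPM in TNBS colon and 0.606 to 1.48 CPM in normal colon, and its 1 tested gene, Krt14, was not called (-0.37, edgeR adjusted p = 0.881). Of 5 Hox genes of more forward gut, Hoxb7 rose by edgeR (4.14, SE 0.74, adjusted p = 0.0337; all 5 without TNBS replicate 1, 0 without any 1 of the others), of 3 tested hindmost ones 0 were called by edgeR, DESeq2, limma-voom or at an unadjusted p under 0.05 (Hoxb13 at -2.95, adjusted p = 0.276), and of 4 Y-linked genes likewise 0 (Uty at -1.76, adjusted p = 0.334). The 5 forward Hox genes were all higher in DESeq2 and at an unadjusted p under 0.05, and 0 of them in limma-voom. Without TNBS replicate 1, 2 hindmost ones were called lower by edgeR, Hoxb13 at -7.77 (adjusted p = 0.0105), and with replicate number as a block Hoxb13 was called at -4.35 (adjusted p = 0.0421). The part of position along the gut in the levels of the 8 genes was not tested. TNBS replicate 1 was the TNBS library nearest to the normal ones in its Hox levels, and its Y-linked transcripts were at 0.697% of the normal mean. With this library alone as the TNBS group, the log2 fold changes were -6.29 for Ang4, -6.77 for Itln1, -1.01 for Retnlb and -1.41 for Lyz1. They were -0.43 for Wfdc2, 1.41 for Slpi, -0.22 for Pigr and -1.03 for Lypd8.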

How the data were processed

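RNA of mouse colon was measured in 3 TNBS and 3 normal libraries, grouped by the submitters' labels. The authors deposited raw read counts by gene for each library, per the file headers; these were used, and 6 columns of normalized values were not. Per the submitters' processing notes, CASAVA 1.8, HISAT2 and mm10 were used; the sources used here give no counting tool, annotation or strand handling. All 16906 rows are protein-coding. Symbols and coordinates follow GENCODE vM21 (833 symbols differ from the table's).

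The 8 genes, the gene lists and the tests were chosen with earlier results of these data known. Genes were filtered with filterByExpr (minimum count 10, minimum total 15; 14126 kept), scaled with TMM and tested with edgeR 4.0.16 (glmQLFit, glmQLFTest, two-sided, group as the only term, Benjamini-Hochberg over all genes, threshold 0.05) in R 4.3.3; the script was tested on simulated data. The standard error is the log2 fold change over the square root of F. Alternatives used DESeq2 1.42.0, limma 3.58.1 (voom), other filters, scalings and libraries. Tables were joined in Python 3.11.15. Lists are described by counts, with no list test apart from an exact permutation test over libraries of the summed epithelium markers. Named genes are all 8 effectors, all measured relatives, up to 3 called genes of each list with the smallest p (else the gene furthest from 0; 1 such gene is not reported here), and the 2 genes most like each effector with a mean of at least 50 counts in the higher group (prior count 2 on the log scale). Totals ran from 15185569 to 23380492 counts; floors of 3 counts cover counting error only.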

Additional observations from a re-analysis of the deposited data

How the results depend on the processing

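Ang4 and Itln1 were called lower in all 17 alternatives. The number of the 8 genes called lower stayed at 2 or 3 except without TNBS replicate 1, where it was 4, and the number called higher was 0 throughout. Log2 fold changes ran from -7.11 to -6.15 for Ang4, -7.98 to -6.14 for Itln1, -2.58 to -1.01 for Retnlb, -1.14 to -0.86 for Lypd8, -0.36 to -0.10 for Pigr and -8.94 to -0.24 for Lyz1, the lowest of which has 0 TNBS counts.

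Over all genes, main counts of 161 lower and 128 higher moved to 679 and 666 in DESeq2, to 102 and 196 with library totals, to 33 and 30 with TNBS replicate 1 alone as the TNBS group and to 480 and 338 with TNBS replicate 2 alone. Limma-voom called 80 higher, the fit without a filter 209 higher, and scaling to epithelium markers 92 lower. Leaving out 1 library in turn gave 11 to 576 lower and 7 to 532 higher, with 2 to 4 of the 8 genes called lower. The cause of these moves was not tested.

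Signs turned for 7 named genes, none of them called in the fit described. Wfdc2 was 0.38 with TNBS replicate 2 alone and -0.56 to 0.21 with 1 library left out. Slpi was -0.85 in limma-voom, -0.93 with the replicate block, -3.39 with TNBS replicate 2 alone and -2.26 to 0.58 with 1 library left out. Lyz2 was -1.26, Wfdc1 0.33 and Mcpt1 -6.13 with TNBS replicate 2 alone; Wfdc1 was 0.033 with library totals; Wfdc18 was 0.55 and Krt14 0.089 with TNBS replicate 1 alone; and Krt14 was 0.75 in limma-voom and 0.25 with the replicate block. With 1 library left out, Lyz2 ran from -0.26 to 0.63, Wfdc1 from -0.36 to 0.093, Wfdc18 from -1.08 to 0.055 and Krt14 from -0.94 to 0.071. The cause was not tested.

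Replicate numbers did not pair the libraries: deviations from the group means correlated at 0.00547, 0.0149 and 0.0354 across genes between same-numbered libraries. The fit with the replicate block called 207 genes lower and 153 higher and, of the 8 genes, 2 lower. For other named genes a call was lost in 80 and gained in 18 combinations of gene and setting. A TNBS group of 1 library is assumed to vary like the normal group. TNBS counts of Itln1, Lyz1 and Slpi go down to 3, 0 and 4. Lyz1 and Slpi were not tested with a minimum count of 50.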
